A study of Mus musculus with 3 samples.

Results

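The genes examined were the collagens, laminins and integrins of the mouse, which were taken by their symbols (Col, Lam or Itg followed by the chain name, without pseudogenes and antisense transcripts). Among 49997 genes counted, 80 matched, namely 44 collagen chains, 11 laminin chains and 25 integrin subunits. The transcripts were measured by RNA immunoprecipitation sequencing (RIP-seq), in which the RNA recovered with a protein is sequenced and set beside an input library. The protein was YTHDF2, a cytoplasmic reader of N6-methyladenosine (m6A) that recruits the deadenylation machinery to the RNAs it binds. The cells were E14 mouse embryonic stem cells (ESCs) after 24 h of doxycycline (Dox), grown on gelatin with leukemia inhibitory factor and serum replacement. In the cell system of the study Dox switches on a Dux transgene, and a tdTomato reporter is driven by the Mervl promoter, so the 1 input and 2 YTHDF2 immunoprecipitation (IP) libraries all share this induction. No library of untreated cells, of other antibodies or of cells without YTHDF2 was analysed here.

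Collagens, laminins and integrins form one path from the outside to the inside of a cell. Collagen chains wind into triple helices in which each helix strand has glycine at every step of 3 residues, while laminins are trimers of an alpha, a beta and a gamma chain that polymerise on the cell surface and start the basement membrane. Integrins are dimers of an alpha and a beta subunit that bind these ligands, or fibronectin and vitronectin, and tie them to actin. All are translated at the endoplasmic reticulum, and in early mouse development the first basement membranes are laid down by cells close to those from which ESCs are derived. The comparison of IP with input asks which of their transcripts came down with YTHDF2 more or less than other RNAs did.

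Counts summed to between 35259827 and 36986994 per library, where both mates of a read pair could be counted, and 3 counts, taken as the floor, correspond to at most 0.0851 CPM (counts scaled by the library total). Where 3 counts of a gene are given in a row, they stand for the input, IP replicate 1 and IP replicate 2. Enriched and depleted mean an adjusted p under 0.05 and a fold over 2 in IP against input, after scaling to the trimmed mean of M-values (TMM). The input had no replicate, and the labels do not say whether the 2 IP libraries come from separate cultures, so the p-values measure only the spread between these IP libraries, which may be technical. That spread was an SD of 0.182 in the log2 ratio of the 2 IP libraries over the 29 members averaging 100 counts or more and 1.11 over the 32 tested members below that. Markers of pluripotent cells summed to 7769 CPM in the input and to 8248 and 8179 CPM in the IP libraries, and 8 markers of 2C-like cells to 2240, 3559 and 3514 CPM. Markers of primitive and parietal endoderm, cells rich in basement membrane transcripts, summed to 18.6, 25.2 and 21.1 CPM over 10 genes, with none at 0 in the input. Of the input sum 6 CPM came from Dab2 and 3.97 from Gata6, while Amn held 3 input counts, Cubn 5, and Foxa2 and Thbd 6 each. Of 10 fibroblast markers 4, among them Dcn, were at 0 in the input, and the list summed to 36.0, 36.8 and 33.8 CPM, with 26.9 CPM of the input sum from Thy1. Trophoblast markers summed to 116, 144 and 135 CPM, with 80.0 CPM of the input sum from Tfap2c and 24.9 from Eomes, while Elf5 was at 0 and Cdx2 at 2 counts in the input. The part of such cells in the results below was not tested, and in bulk libraries fewer cells of a type and less RNA per cell cannot be told apart.

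The coding sequences differ between the families in a way that bears on m6A, which is deposited mainly at adenosines inside the core GGAC, so stretches of both kinds are shown first. GGAC was counted on the sense strand only, without overlaps, since the motif cannot overlap itself. The collagen stretches are whole exons of 54 bases, read from GRCm38.p6 by the exons of the RefSeq Select transcripts. Each begins at a codon start, so that a glycine codon (GGN) opens every group of 9 bases. They are examples with 2 or 3 GGAC each and do not stand for a typical exon of their gene. Exons of 54 bases were 24 of 52 wholly coding exons in Col2a1, 14 of 30 in Col9a2 and 29 of 64 in Col5a1. In Col4a2 they were only 1 of 45, and in Col18a1 3 of 40. The stretches come from Col2a1 exon 6 of 54 (chr15:97998545-97998598, minus strand), Col9a2 exon 8 of 32 (chr4:121044275-121044328, plus strand), Col5a1 exon 36 of 66 (chr2:27997563-27997616, plus strand), Col4a2 exon 17 of 48 (chr8:11413979-11414032, plus strand) and Col18a1 exon 28 of 42 (chr10:77067379-77067432, minus strand). Capitals mark GGAC.
Col2a1: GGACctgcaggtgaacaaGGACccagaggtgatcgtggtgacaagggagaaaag
Col9a2: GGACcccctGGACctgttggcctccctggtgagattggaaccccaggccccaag
Col5a1: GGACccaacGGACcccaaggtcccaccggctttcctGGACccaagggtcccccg
Col4a2: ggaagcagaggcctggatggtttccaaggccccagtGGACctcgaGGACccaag
Col18a1: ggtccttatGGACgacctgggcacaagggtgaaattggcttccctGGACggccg

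From the laminins and integrins the coding windows of 60 bases with the most GGAC are shown for 4 genes whose values are given below. They are Itga5 exon 12 of 30 (chr15:103353574-103353633, minus strand), Itgb5 exon 4 of 15 (chr16:33875829-33875888, plus strand), Itgb1 exon 10 of 16 (chr8:128720062-128720121, plus strand) and Lamc1 exon 2 of 28 (chr1:153262493-153262552, minus strand).
Itga5: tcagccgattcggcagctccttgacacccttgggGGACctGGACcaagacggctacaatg
Itgb5: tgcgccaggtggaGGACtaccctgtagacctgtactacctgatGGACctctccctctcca
Itgb1: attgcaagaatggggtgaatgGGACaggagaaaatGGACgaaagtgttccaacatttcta
Lamc1: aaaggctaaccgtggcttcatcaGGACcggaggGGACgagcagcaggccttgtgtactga

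Over the 44 collagens the coding sequences of the Select transcripts held 2129 GGAC sites, of which 1553 (72.9%) began at the first base of a codon and so lie in a glycine codon followed by a codon that starts with C. In 934 of them, 43.9% of all sites, the next bases were CC, the glycine-proline step of the triple helix. The same share at a codon start was 27.0% of 404 sites in the laminins and 21.8% of 459 sites in the integrins. Glycine made up a median of 24.2% of codons in collagens, 8.17% in laminins and 7.79% in integrins. Of the 1920 collagen exons that were coding throughout, 469 (24.4%) were exactly 54 bases long and 1222 (63.6%) were a multiple of 9, against 0 of 464 and 72 of 464 in laminins and 1 of 586 and 76 of 586 in integrins. The share ran from 31.1% of 61 sites in Col6a3, a type VI chain, to 96.6% of 59 sites in Col24a1, a fibrillar collagen.

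GGAC density over all merged exons, untranslated parts included, had a median of 8.43 sites per kb in the 33 tested collagens, above 97.9% of the 15012 tested protein-coding genes, whose median was 4.05 sites per kb. Tested laminins had a median of 4.97 and tested integrins of 4.47 sites per kb. Collagens were also rich in GC, with a median of 56.6% against 50.5% in the protein-coding genes, and were cut into many exons, with a median of 48 exons and 8.16 exons per kb against 9 and 3.39. These are counts of letters and exons in the reference and not of m6A, which was not measured in these libraries.

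**Figure D1:**
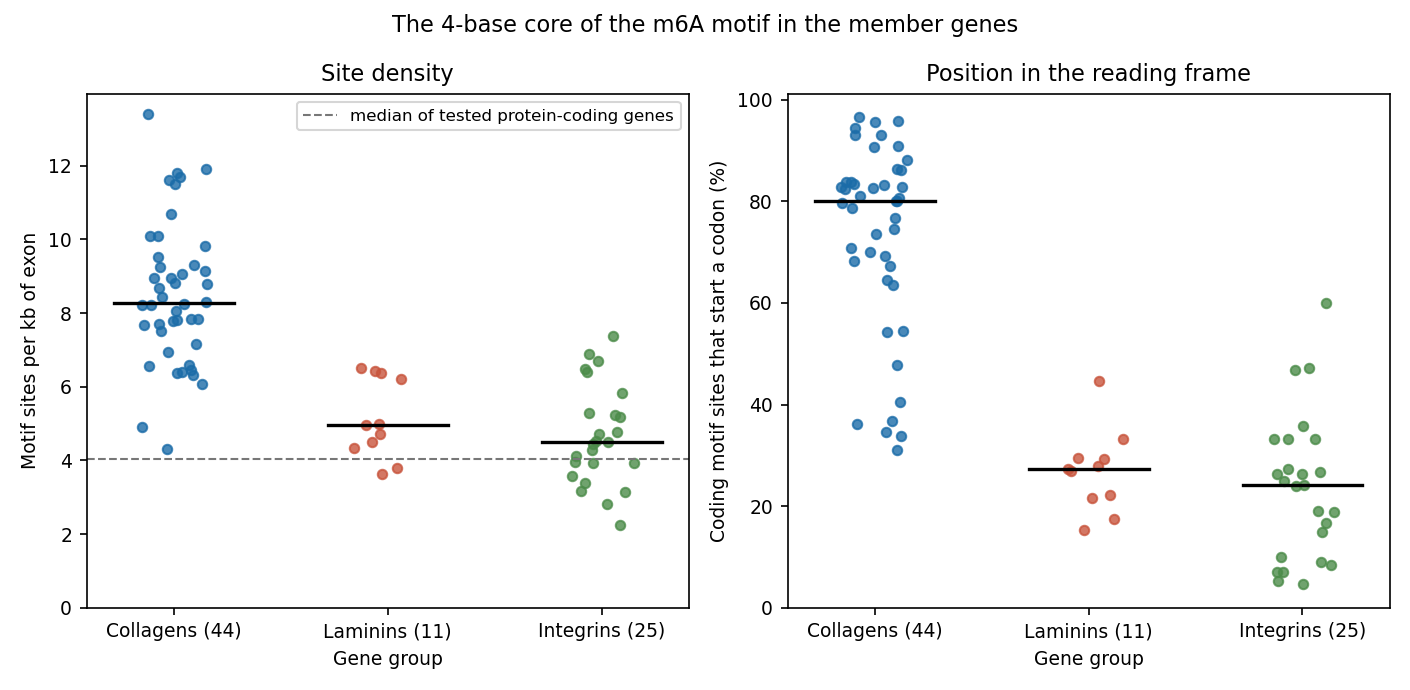
Sites of the 4-base motif per kb of merged exon (left) and percent of the coding sites that start a codon (right), 1 point per gene for 44 collagens, 11 laminins and 25 integrins, with black lines at the group medians and a dashed line at the median of 4.05 sites per kb of the tested protein-coding genes. The median of the collagens lies above those of the other families in both panels, while single genes overlap.

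Among the collagens 33 of 44 passed the filter on low counts, and 4 of these (12.1%) were enriched and 0 depleted by edgeR, beside 15.0% enriched and 13.0% depleted of the 19601 genes tested in all (2936 and 2543 genes, or 3558 and 2003 under scaling to TPM, which counts reads per length). The median log2 fold change of the 33 was 0.15, against 0.01 over all tested genes, and it was -0.12 over the 11 collagens averaging 100 counts or more. At an unadjusted p under 0.05 with the fold the counts were 5 and 0, and DESeq2 gave 4 and 0. At an adjusted p under 0.05 without the fold, 5 were higher in IP and 3 were lower, beside 28.4% and 28.9% of all tested genes. Both IP libraries lay above the input for 13 collagens and below it for 13, and they disagreed for 7, where 44.2% and 45.3% of all tested genes had both above or both below. The filter was reached only through an IP library by 7 of the 33, among them Col4a4, 1 of the 4 enriched, and these could hardly have been low in IP. Of the 11 untested collagens no library held more than 8 counts, and Col3a1, Col4a3 and Col8a1 had none in any library.

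Col18a1 had the most reads of the collagens. This gene (chromosome 10, 77052178 to 77166530, minus strand), a basement membrane collagen that yields endostatin, had 7638 input counts and 5269 and 5255 IP counts. It alone made up 51.5% of the collagen counts of the input and 44.0% and 43.4% of those of the IP libraries. Both IP libraries lay below the input by a like amount, and the log2 fold change was -0.58 ± 0.0609 (SE, n = 2 IP libraries against 1 input), a fold of 1.49 with an adjusted p of 1.46e-10. With the trend of fold change on GC content removed it was -1.14, past the fold of 2. Col9a2, a chain of type IX collagen, which sits on the surface of cartilage fibrils, was second with 1836, 1715 and 1757 counts. Its log2 fold change of -0.12 ± 0.0937 did not pass (adjusted p = 0.284), and it was 0.03 under scaling to TPM and -0.95 with the GC trend removed, where it passed (adjusted p = 1.95e-11, in a range up to 0.913 over the alternatives). Per kb of exon the input held 28.4 CPM of Col18a1 and 18.1 CPM of Col9a2, against 5.13 CPM of Col4a1, the next in order.

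Col4a1 and Col4a2, which encode the chains of the type IV network in all basement membranes, are neighbours that are read outward from a shared start on chromosome 8. Col4a1 (11198423 to 11312889, minus strand) held 1427, 859 and 769 counts. Col4a2 (11312805 to 11449287, plus strand) held 781, 383 and 444 counts. All 4 IP values lay below the input, with log2 fold changes of -0.85 ± 0.116 (adjusted p = 5.01e-08) and -0.96 ± 0.149 (adjusted p = 6.68e-07), short of the fold of 2. With the GC trend removed both were past it, at -1.17 and -1.60. Their exons overlap by 85 bases, where reads were left uncounted. The other type IV chains, which belong to the kidney and a few other tissues, held few reads. Col4a5 held 9, 2 and 14 counts, with the IP libraries on both sides of the input (log2 fold change -0.21 ± 1.42, adjusted p = 0.914), and the untested Col4a6 at most 6. Col4a4 held 0, 2 and 40 counts, a mean IP level at least 7.22-fold higher than the floor of 3 input counts. It reached the filter only through IP replicate 2, since IP replicate 1 lay under the floor, and its call as enriched (adjusted p = 0.014) rests on that library and was lost with halved counts (adjusted p = 0.0833). With Col4a4 at that bound the collagen median stayed at 0.15.

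Col2a1 had the most reads of the enriched collagens. This gene (chromosome 15, 97975602 to 98004724, minus strand), whose product forms the fibrils of cartilage, had 193 input counts and 616 and 672 IP counts. Both IP libraries were above the input by more than 3-fold, and the log2 fold change was 1.70 ± 0.178 (3.24-fold, adjusted p = 1.21e-10). With the GC trend removed it was 1.01, just past the fold of 2. A predicted gene on the opposite strand, Gm46536, shares 393 bases of exon with it and held 116, 212 and 218 counts. Reads over the shared bases were left uncounted by the default of the counting tool, so the counts of both genes come from outside them. The other enriched collagens were named after their values were seen. Col7a1, the chain of the anchoring fibrils of skin, held 22, 83 and 92 counts (log2 fold change 1.95 ± 0.481, adjusted p = 6.49e-04). Col6a4, a chain of the beaded filaments of type VI collagen, held 70, 177 and 221 counts (1.47 ± 0.312, adjusted p = 1.06e-04).

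Of the remaining collagens with a mean of at least 5 CPM, 1 passed the adjusted p in edgeR. Col20a1, of the collagens with interrupted helices that attach to fibrils, held 186, 315 and 301 counts and was higher in both IP libraries (log2 fold change 0.69 ± 0.223, adjusted p = 0.00798). In the DESeq2 test Col20a1 did not pass (adjusted p = 0.0967). Its relative Col22a1 held 190, 261 and 280 counts (0.47 ± 0.231, adjusted p = 0.0813). Col22a1 passed under scaling by total count (adjusted p = 0.0376) and to TPM (adjusted p = 0.0186), as did Col6a5 to TPM (adjusted p = 0.0388). Col6a5, next to Col6a4 on chromosome 9, held 248, 342 and 303 counts (0.34 ± 0.207, adjusted p = 0.165), so the neighbours lay in the same direction but differed in size, a difference that was not tested. Col13a1, a collagen of the plasma membrane, held 911, 797 and 784 counts (-0.24 ± 0.13, adjusted p = 0.0935). Col5a1, which starts the assembly of fibrils, held 639, 519 and 593 counts (-0.24 ± 0.146, adjusted p = 0.162). Neither passed the test, but with the GC trend removed both did, at -0.57 (adjusted p = 1.56e-04) and -0.67 (adjusted p = 1.43e-04), whereas Col20a1 no longer did (0.44, adjusted p = 0.0883).

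At the ends of the collagen order the counts were small. Col25a1, a membrane collagen, held 1, 12 and 9 counts, and did not pass (adjusted p = 0.168), except with the dispersion fixed at 0.1 (adjusted p = 0.0484). It reached the filter only through IP replicate 1. Its CPM ratio was 10.9, with an exact 95% counting interval of 1.76 to 451 that takes reads as independent and is too narrow where both mates of a pair were counted. Col6a1, a core chain of type VI collagen, held 43, 14 and 22 counts (-1.29 ± 0.668, adjusted p = 0.0983). Col14a1 held 55, 33 and 23 counts (-1.01 ± 0.543, adjusted p = 0.112). Col1a1, the main chain of type I collagen and a typical fibroblast transcript, was named after its values were seen and had 75, 57 and 62 counts (-0.37 ± 0.413, adjusted p = 0.463). With the GC trend removed, 5 collagens were depleted, namely Col18a1, Col4a1, Col4a2, Col5a3 and Col6a1, beside 2068 of the 19601 genes under the same setting, and the median fell to -0.17. Leaving out IP replicate 1 turned the median to -0.05.

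**Figure D2:**
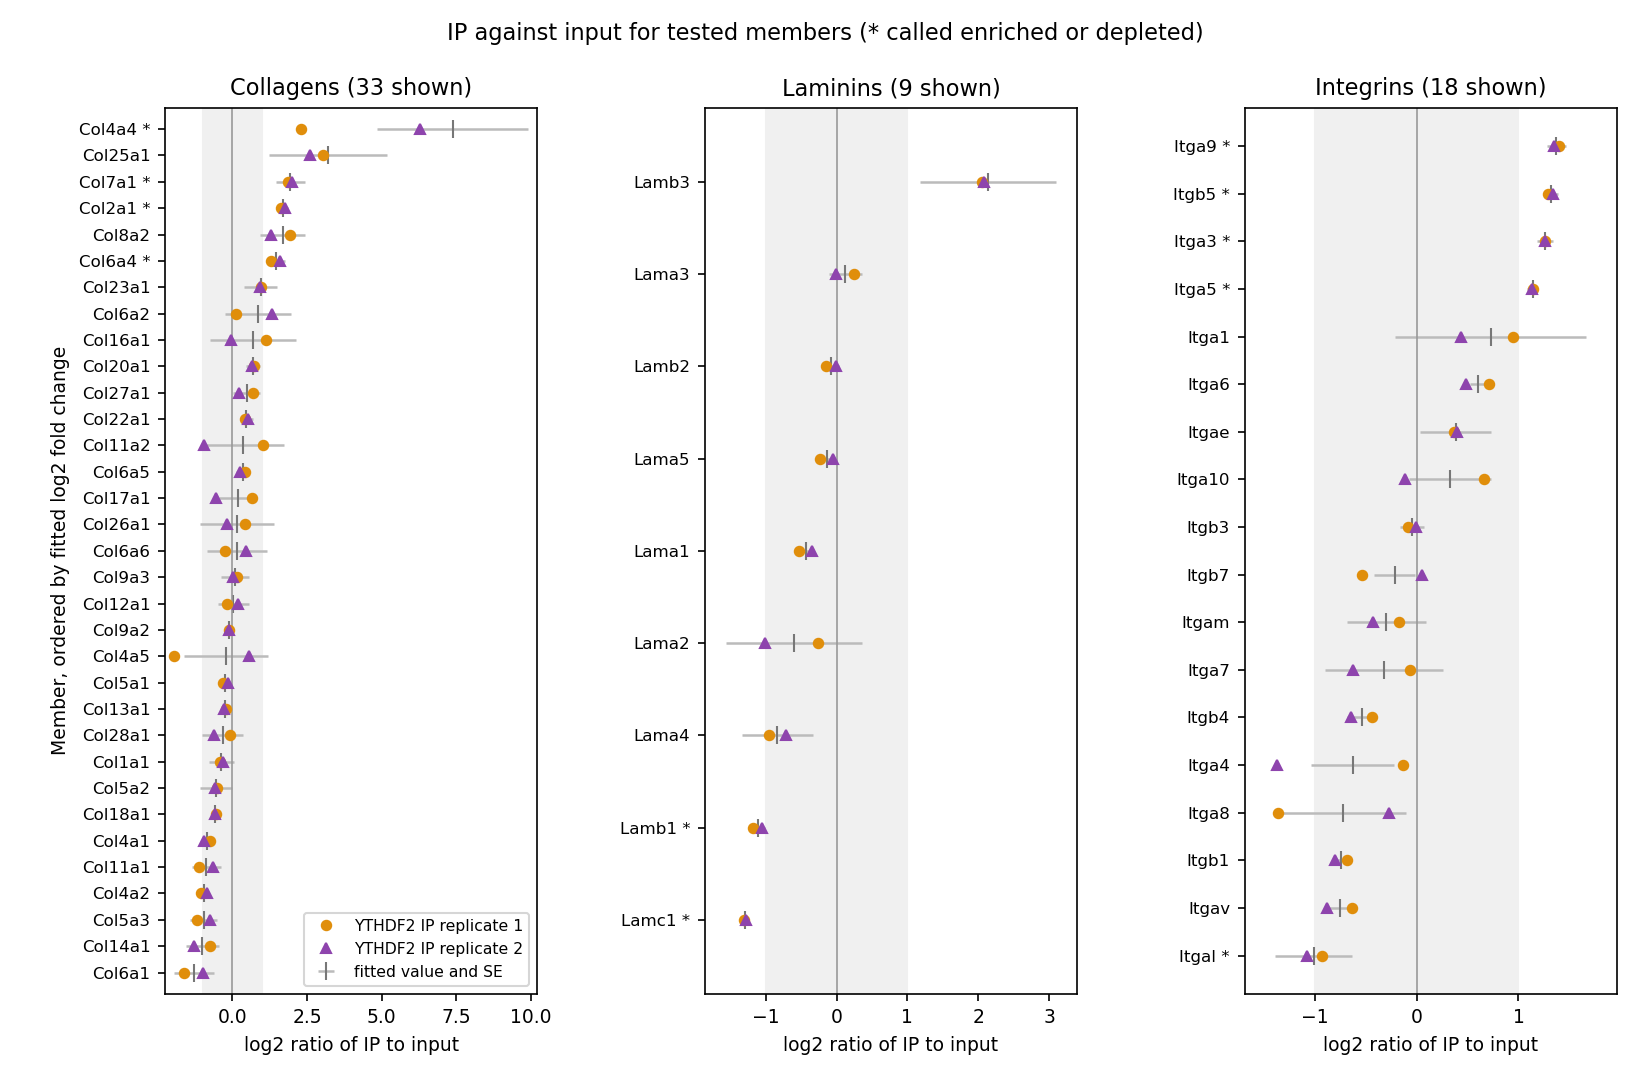
Log2 ratio of each IP library to the input for 33 collagens, 9 laminins and 18 integrins that passed the filter, ordered by the fitted log2 fold change (grey tick, with its SE as a grey bar), with the range under a fold of 2 shaded and called members starred. The IP libraries lie close together for Itga9, Itgb5, Itga3, Itga5, Lamc1 and Lamb1 and far apart for Col4a4 and Col4a5.

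Of the 11 laminin chains 10 passed the filter, 0 were enriched and 2, Lamc1 and Lamb1, were depleted, beside 15.0% and 13.0% of all tested genes. At the adjusted p 4 were lower, Lama1 among them, and 0 higher in edgeR, beside 28.9% and 28.4%, and 6 did not pass. At an unadjusted p under 0.05 Lamb3 was the 1 laminin higher, and DESeq2 called 0 higher or enriched and 2 depleted. Their median log2 fold change was -0.45. Both IP libraries were below the input for 8 of the 10, above it for Lamb3, and split for Lama3, where 45.3% of all tested genes had both below. Lamc3, a chain of few tissues, held 2, 0 and 0 counts and was not tested.

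The gamma 1 and beta 1 chains, which are part of most laminin trimers including those of the earliest basement membranes, had the lowest values. Lamc1 (chromosome 1, 153218922 to 153332786, minus strand) had 17718 input counts and 7295 and 7545 IP counts. Its log2 fold change was -1.30 ± 0.0536, or 2.45-fold lower in IP (adjusted p = 4.06e-22), and it made up 61.4% of the laminin counts of the input but 46.5% and 44.7% of those of the IP libraries. Lamb1 (chromosome 12, 31265146 to 31329644, plus strand) held 2280, 1029 and 1137 counts, with a log2 fold change of -1.11 ± 0.0993 (2.16-fold lower, adjusted p = 2.23e-12). For both genes the IP libraries differed from each other far less than from the input. Under scaling to TPM, which shifted the median over all tested genes by 0.15, Lamb1 was -0.96 and no longer past the fold of 2.

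The alpha chains carry the binding sites for integrins. Lama1, the alpha chain of the embryonic basement membrane, held 1729, 1228 and 1402 counts (log2 fold change -0.44 ± 0.103, adjusted p = 4.15e-04). Lama5, an alpha chain that ESCs bind well, held 3833, 3321 and 3828 counts (-0.14 ± 0.0755, adjusted p = 0.111), a value of 0.01 under scaling to TPM and of -0.72 with the GC trend removed, where it passed (adjusted p = 1.71e-10) and Lama1 was -0.64. The difference between Lama1 and Lama5 was not tested. Lama3, an alpha chain of epithelia, held 218, 263 and 224 counts (0.12 ± 0.233, adjusted p = 0.69). Lama4, found in vessels, held 59, 31 and 37 counts (-0.83 ± 0.502, adjusted p = 0.16). Lama2, found in muscle, held 20, 17 and 10 counts (-0.60 ± 0.957, adjusted p = 0.622). Neither passed the test.

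The other beta chains did not pass the test under TMM scaling. Lamb3, a beta chain of epithelia, held 6, 27 and 28 counts, and its log2 fold change of 2.13 ± 0.96 missed the threshold (adjusted p = 0.056), which it passed under scaling by total count (adjusted p = 0.048) and to TPM (adjusted p = 0.0382), in a range up to 0.184 in DESeq2. Lamb3 reached the filter only through the IP libraries. Lamb2, the beta chain of neuromuscular and kidney basement membranes, held 1503, 1382 and 1555 counts (-0.07 ± 0.103, adjusted p = 0.57), and it was 0.02 under scaling by total count and -0.56 with the GC trend removed, where it passed (adjusted p = 1.07e-05, in a range up to 0.947 over the alternatives). With the dispersion fixed at 0.1, a spread far above that of the IP libraries, neither Lamc1 (adjusted p = 0.0805) nor Lamb1 (adjusted p = 0.144) was called, while the next highest adjusted p among the alternatives was 7.46e-09 for Lamc1 and 2.37e-06 for Lamb1.

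The integrins held called genes in both directions in edgeR, while DESeq2 gave 4 enriched and 0 depleted. Of 25 subunits 18 passed the filter, and 4 (22.2%) were enriched and 1 (5.56%) was depleted, beside the 15.0% and 13.0% of all tested genes. At the adjusted p alone 5 were higher in IP and 4 lower, beside 28.4% and 28.9% of all tested genes, and the median log2 fold change was -0.13. Among the 11 integrins averaging 100 counts or more the median was 0.38. Of the 7 untested subunits none had more than 10 counts in a library, and Itgax and Itgb8 had none.

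The enriched subunits were 3 alpha chains of beta 1 dimers and 1 beta chain of alpha v. Itga5 (chromosome 15, 103344286 to 103366791, minus strand), the alpha chain of the main fibronectin receptor, had 7479 input counts and 16897 and 16981 IP counts. The IP libraries lay side by side, well above the input, and the log2 fold change was 1.14 ± 0.0566 (2.2-fold, adjusted p = 1.02e-19). Itga3 (chromosome 11, 95044475 to 95076844, minus strand), which binds laminins, held 1937, 4744 and 4801 counts (1.26 ± 0.0754, adjusted p = 2.54e-17). Itga9 (chromosome 9, 118606709 to 118901003, plus strand), a receptor for tenascin and other ligands, held 1073, 2885 and 2827 counts (1.37 ± 0.092, adjusted p = 6.99e-16). Itgb5 (chromosome 16, 33829665 to 33949338, plus strand), which with alpha v binds vitronectin, held 2537, 6331 and 6670 counts (1.32 ± 0.0695, adjusted p = 6.48e-19). Itga6, the alpha chain of laminin receptors, held 5946, 9910 and 8624 counts and was 1.52-fold higher (0.60 ± 0.073, adjusted p = 1.30e-07), with IP replicate 1 above IP replicate 2. With the GC trend removed Itga9 stayed enriched, while Itga3 (0.83), Itga5 (0.76) and Itgb5 (0.98) were still higher at the adjusted p but under the fold of 2. A fixed dispersion of 0.1 left 0 integrins called in either direction.

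Itgb1, Itgav and Itgb4, which pair with these subunits, were lower in IP by edgeR. Itgb1 (chromosome 8, 128685654 to 128733579, plus strand), the beta 1 chain that pairs with Itga3, Itga5, Itga6 and Itga9, had 11888 input counts and 7533 and 7052 IP counts, and was 1.68-fold lower (log2 fold change -0.74 ± 0.0584, adjusted p = 1.09e-13). Itgav, the partner of Itgb5 and Itgb3, held 2041, 1336 and 1146 counts and was 1.69-fold lower (-0.76 ± 0.104, adjusted p = 6.76e-08). Itgb4, which pairs with Itga6 in the hemidesmosomes of epithelia, held 706, 532 and 468 counts (-0.54 ± 0.147, adjusted p = 0.00189). In the DESeq2 test Itgb4 did not pass (adjusted p = 0.0603), whereas Itgb1 (adjusted p = 1.19e-20) and Itgav (adjusted p = 1.17e-05) did. With the GC trend removed Itgb1 was -0.29 and Itgav -0.30, both still lower at the adjusted p, and Itgb4 was -1.13, past the fold of 2. In the input Itgb1 had the highest level per length of all members, 76.6 CPM per kb of exon against 45.2 for Itga5, whereas in the IP libraries Itga5 led with 107 and 106 CPM per kb against 50.9 and 46.9 for Itgb1.

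**Figure D3:**
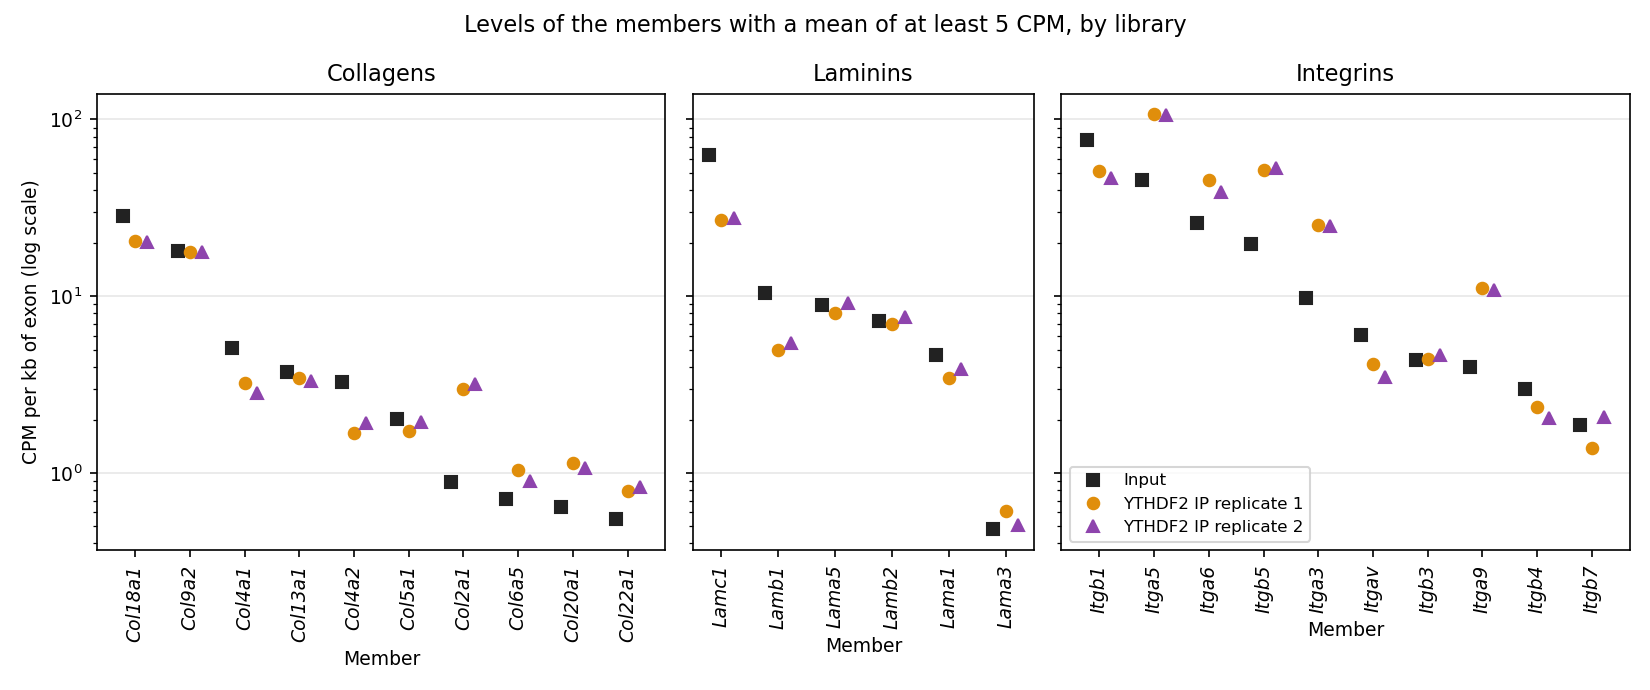
CPM per kb of exon on a log axis in the input (squares), IP replicate 1 (circles) and IP replicate 2 (triangles) for 10 collagens, 6 laminins and 10 integrins with a mean of at least 5 CPM, ordered by the input. Both IP values of Itga5, Itgb5, Itga3, Itga9 and Col2a1 stand above the input, and both of Lamc1, Lamb1, Itgb1 and Col4a2 below it.

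For the beta chains Itgb3 and Itgb7 no difference from the input was detected. Itgb3, the second partner of alpha v and a subunit of platelets and of cells on vitronectin, held 969, 933 and 1000 counts (-0.04 ± 0.119, adjusted p = 0.78), and its sign turned to 0.11 under scaling to TPM and to 0.05 by total count. Itgb7, a leukocyte chain, held 396, 278 and 424 counts (-0.22 ± 0.202, adjusted p = 0.382), with the IP libraries on both sides of the input. Itgal, the alpha chain of the leukocyte receptor LFA-1, held 111, 59 and 54 counts and was the 1 depleted integrin (-1.01 ± 0.379, adjusted p = 0.0215). Its value sat at the fold of 2, and the call was lost under 5 alternatives, in DESeq2 with an adjusted p of 0.206, in a range of 0.00751 to 0.225 over the alternatives. Its partner Itgb2 held 10, 0 and 0 counts and was not tested.

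Summed over each family, the integrins took a larger share of the reads in IP and the laminins a smaller one. Laminins held 0.0780% of the input counts (95% Wilson interval 0.0771% to 0.0789%) and 0.0445% and 0.0470% of the IP counts. Integrins held 0.0961% (0.0951% to 0.0971%) of the input and 0.147% and 0.140% of the IP counts. Collagens held 0.0401% (0.0394% to 0.0407%) and 0.0340% and 0.0337%. These intervals cover counting error only, and a read and its mate are not independent. In each family few genes set the sum, Lamc1 for the laminins, Col18a1 for the collagens, and Itgb1 with 33.5% of the integrin counts in the input and Itga5 with 32.5% and 33.7% in the IP libraries.

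**Figure D4:**
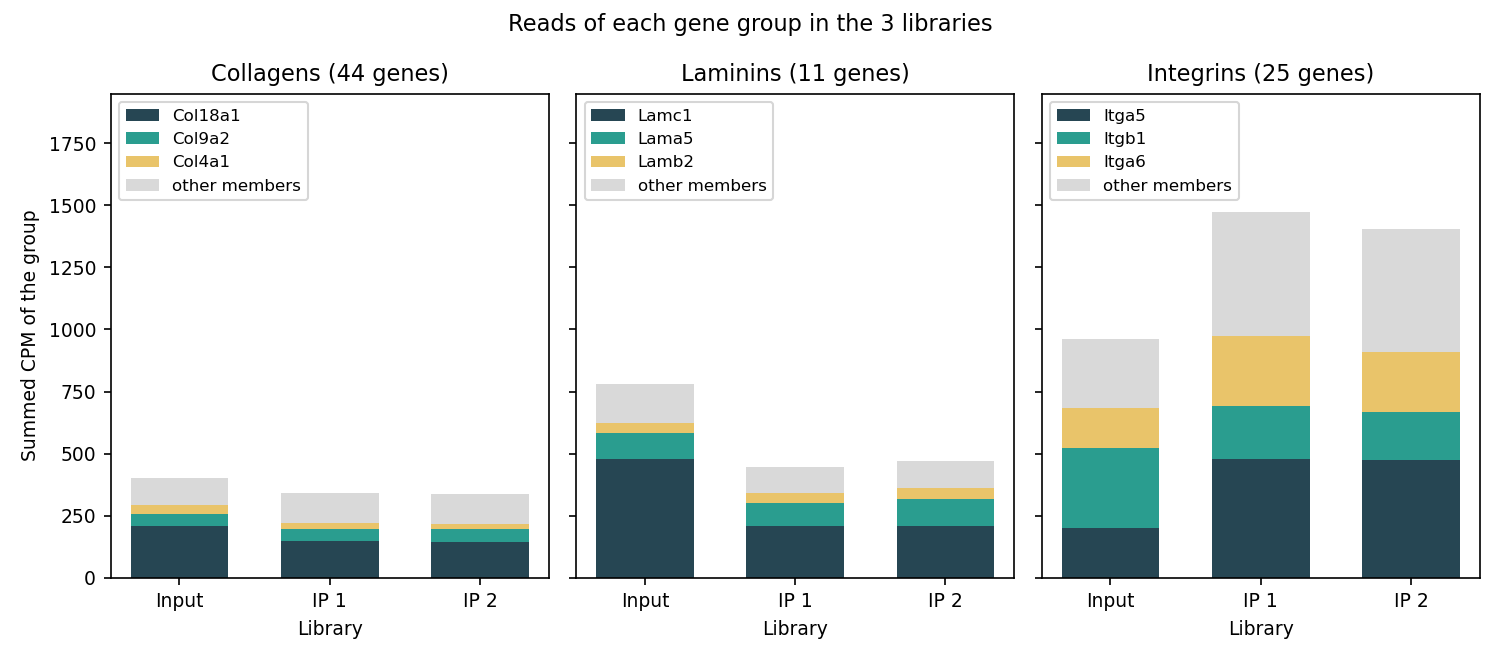
Summed CPM of the 44 collagens, 11 laminins and 25 integrins in the input and the IP libraries, stacked by the 3 members with the most reads of each family and the other members in grey. Laminins go from 780 CPM in the input to 445 and 470 CPM in IP, integrins from 961 to 1473 and 1405 CPM, and collagens from 401 to 340 and 337 CPM.

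The GC content, motif density and exon density were then set beside the fold changes. Across the 15012 tested protein-coding genes, which share the 3 libraries, the log2 fold change had a Spearman rho of 0.36 with the GC content of the exons, 0.28 with GGAC sites per kb and -0.31 with exons per kb. Across the 33 collagens the same values were 0.10, -0.17 and -0.18, across the 10 laminins 0.50, 0.52 and 0.38, and across the 18 integrins 0.41, 0.15 and 0.06. Over the 29 members averaging 100 counts or more they were -0.00, -0.08 and 0.06. In the top quintile of GC content, 56.0% to 73.1%, all protein-coding genes had a median log2 fold change of 0.50, whereas the 26 members there, 19 of them collagens, had a median of 0.13. In the lowest quintile, where Itgb1 and Itgav lie with 3 other integrins, the medians were -0.59 for all genes and -0.72 for the 5 members. These are descriptions over genes, which are not independent replicates.

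**Figure D5:**
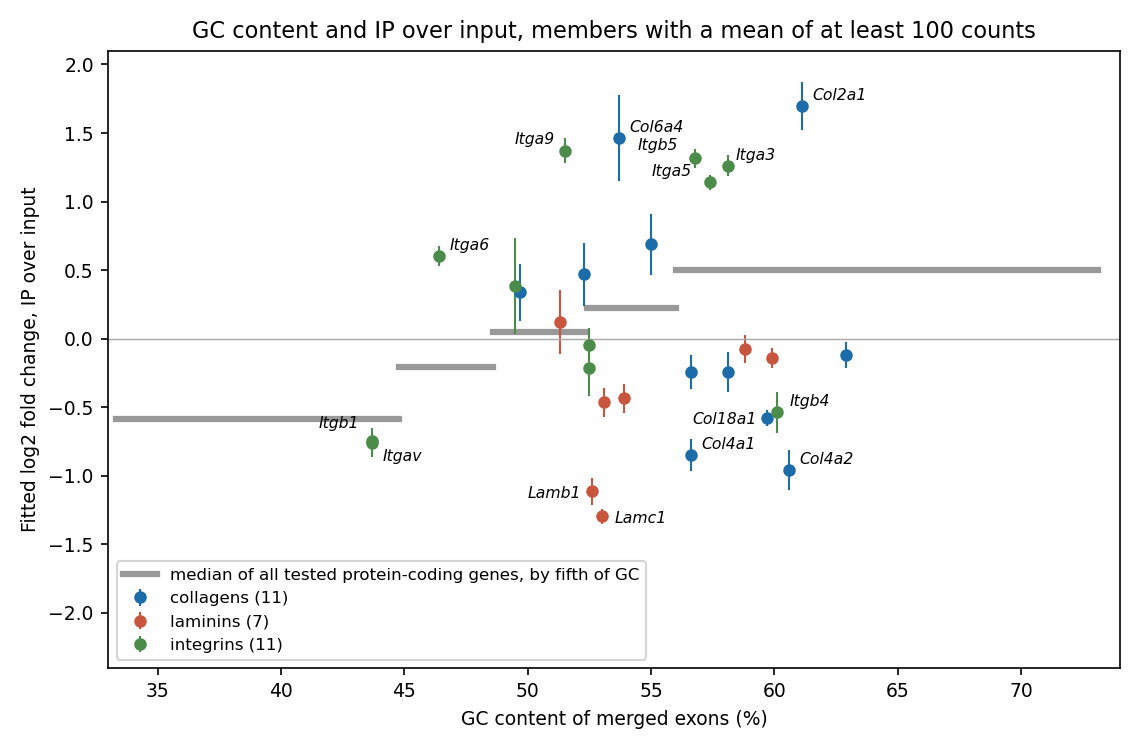
Fitted log2 fold change with its SE against the GC content of the merged exons for the 29 members averaging 100 counts or more, coloured by family, with grey bars at the median of all tested protein-coding genes in each quintile of GC content. Col18a1, Col4a1, Col4a2 and Itgb4 lie below the grey bar of 0.50 at their GC content, and Col2a1, Itga3, Itga5 and Itgb5 above it.

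The other genes of the same path were read from fixed lists, whose counts stand beside 15.0% enriched, 13.0% depleted, 28.4% higher and 28.9% lower of all tested genes. Among 20 tested partners of the basement membrane, such as nidogens and heparan sulfate proteoglycans, 1 was enriched and 4 depleted, 3 were higher and 10 lower at the adjusted p, and the median was -0.41. Nid2, which links laminin to type IV collagen, held 15597, 4163 and 4641 counts (log2 fold change -1.87 ± 0.0592, adjusted p = 6.31e-25). Its paralog Nid1 (-1.37 ± 0.0617), Sparc (-1.45 ± 0.0517), a collagen-binding protein, and Egfl6 (-2.16 ± 0.432) were depleted too. Smoc1 was the 1 enriched gene, with 707, 1780 and 1773 counts (1.29 ± 0.112). The next highest, Sdc1 (syndecan 1), a coreceptor of integrins, held 2397, 4207 and 4232 counts (0.78 ± 0.0743, adjusted p = 1.29e-11).

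Of 30 tested enzymes and chaperones of collagen synthesis 2 were enriched and 4 depleted, 4 were higher and 13 lower at the adjusted p, and the median was -0.39. DESeq2 gave 1 enriched and 3 depleted, and 2 higher. The shares over all tested genes in edgeR were 15.0% enriched, 13.0% depleted, 28.4% higher and 28.9% lower. The depleted genes were Colgalt1, which puts galactose on collagen (5188, 1456 and 1476 counts, log2 fold change -1.86 ± 0.0746), Mia2 (-1.10 ± 0.0951), which acts in the export of large cargo, Plod2 (-1.05 ± 0.0951), a lysyl hydroxylase, and Ppib (-1.001 ± 0.0766), a prolyl isomerase. Of the enriched genes P3h3 held 86, 207 and 223 counts and Loxl4, which reached the filter only through the IP libraries, 10, 37 and 38.

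Of 28 tested genes that link integrins to the cytoskeleton 0 were enriched and 6 depleted in edgeR and in DESeq2. At the adjusted p 12 were higher and 8 lower in edgeR, 8 were higher in DESeq2, and the median was 0.12. These counts stand beside 15.0% enriched, 13.0% depleted, 28.4% higher and 28.9% lower of all genes in edgeR. At an unadjusted p under 0.05 with the fold 1 gene was enriched and 7 depleted. Vcl (vinculin), which binds talin and actin, held 2429, 289 and 323 counts, the lowest log2 fold change of the list at -3.03 ± 0.117. Lims1 followed with 1658, 451 and 488 counts (-1.86 ± 0.12), an adaptor of the integrin-linked kinase. At the upper end Filip1l held 28, 58 and 63 counts (1.07 ± 0.511, adjusted p = 0.0731) and Tns2 held 102, 185 and 223 counts (0.96 ± 0.288, adjusted p = 0.00433).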

How the data were processed

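The sample titles placed 1 library of Dox-treated E14 ESCs in the input group and 2 in the YTHDF2 IP group. The study's methods describe IP from a cleared lysate, whereas the labels describe IP of extracted total RNA, and which was done is not given in the sources used here. The authors deposited gene counts without normalization. They used featureCounts 2.0.3 in paired mode, per the file headers, with each mate counted on its own, over exons of the mm10 RefSeq annotation without strand, which by default drops reads that map to several places or to more than 1 gene. The submitters' processing notes name fastp 0.19.4, HISAT2 2.2.1 and DESeq2 1.40.2. The table held 0 columns of other samples.

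The analysis ran in edgeR 4.0.16 under R 4.3.3, where filterByExpr left 19601 genes, for which a library must hold about 0.279 CPM. TMM gave factors of 0.957 (input), 1.02 and 1.02. IP was compared with input over all of these genes by the quasi-likelihood F test with robust estimation and Benjamini-Hochberg adjustment. The 1 residual degree of freedom comes from the IP libraries, whose coefficient of variation was 7.33%. The SE was derived from the F statistic. Ratios of single IP libraries had 0.5 added to each count. The script was also tested on simulated data with known changes, which were drawn with the dispersion of the fit to these data.

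The members, the gene lists and the rule for named genes were chosen with earlier results of these data known. The rule took tested laminins and type IV collagens, collagens and integrins averaging 5 CPM or more, and the 2 highest and 2 lowest of each family. Sequences, GC content and exons come from GRCm38.p6 and its RefSeq annotation, in which 80 of 80 members had a Select transcript. Protein sequences were not used here, and the values of 1 laminin are not reported here. The alternatives were DESeq2 size factors, scaling by total count and to TPM, the DESeq2 1.42.0 test, no filter, a stricter filter, a dispersion fixed at 0.1, halved counts, removal of a GC trend, and leaving out each IP library.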

Additional observations from a re-analysis of the deposited data

How the results depend on the processing

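No paired analysis was possible because there is 1 input library, so that no pair of an input and an IP library can be formed beyond it. Leaving out 1 IP library gave values without a test, so calls were not counted there. Of the 87 values for the families under the alternatives 58 stayed alike, 24 moved and 5 reversed. The number of enriched collagens stayed within 1.5 times throughout, and 1 collagen was depleted under the stricter filter and 5 with the GC trend removed. The collagen median of 0.15 was 0.30 under scaling to TPM, -0.0486 under the stricter filter and -0.17 with the GC trend removed, and between -0.0493 and 0.1265 without 1 IP library. Among laminins 1 gene, Lamb3, was enriched under scaling by total count and to TPM, and 1 was depleted under scaling to TPM and 0 under the fixed dispersion. The laminin median of -0.45 was -0.35 by total count, -0.30 to TPM and -0.64 with the GC trend removed, and between -0.41 and -0.36 without 1 IP library. Of the 4 enriched integrins 0 were left by the fixed dispersion and 1 by removing the GC trend. The 1 depleted integrin was lost (0) under scaling by total count, scaling to TPM, DESeq2, no filter and the fixed dispersion, and became 2, Itgal and Itgb4, with the GC trend removed. The integrin median of -0.13 was -0.0339 by total count, 0.0214 to TPM, 0.35 without a filter and -0.10 with the GC trend removed, and between -0.0697 and -0.0601 without 1 IP library. Of 392 values for 36 named genes 356 stayed alike. The 6 counted as reversed were Col9a2 (0.0306), Itgb3 (0.11), Lama5 (0.01) and Lamb2 (0.0774) to TPM and Itgb3 (0.052) and Lamb2 (0.022) by total count, none of which passed the test. Without IP replicate 1 the sign also turned for Col4a5 (0.5806), Itgb7 (0.0482) and Lama3 (-0.0112), which were counted as alike. Scaling to TPM raised the median of all genes by 0.15. The fixed dispersion called 1577 genes enriched and 1531 depleted in place of 2936 and 2543. The cause of these shifts was not tested. Without IP replicate 2 Col4a4 was under the floor in both libraries left, so no fold is given. The limits are 1 input library, 1 residual degree of freedom and, for 32 of the 61 tested members, a mean under 100 counts, where the log2 ratio of the 2 IP libraries had an SD of 1.11.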

Other observations

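Cell adhesion molecules outside the integrins were read from a list of cadherins and members of the immunoglobulin family, and 21 of 22 passed the filter. The list held values in both directions, with 3 enriched and 3 depleted genes, 5 higher and 7 lower at the adjusted p, and a median log2 fold change of -0.54. Of all tested genes 15.0% were enriched, 13.0% depleted, 28.4% higher and 28.9% lower. DESeq2 gave 3 enriched and 2 depleted. The enriched genes were Nectin2 (6541 input counts, 18306 and 18742 IP counts, log2 fold change 1.46 ± 0.0573), Nectin3 (1519, 3421 and 3282 counts, 1.10 ± 0.0833) and Icam1 (8472, 17944 and 17816 counts, 1.04 ± 0.0559). Nectins hold adherens junctions together from the outside, and Icam1 is a ligand of the leukocyte integrins. The depleted genes were Cadm1 (2442, 1051 and 846 counts, -1.40 ± 0.11, adjusted p = 1.52e-12), Mcam (1926, 713 and 842 counts, -1.35 ± 0.111, adjusted p = 3.25e-13) and Cdh2 (83, 50 and 18 counts, -1.32 ± 0.498, adjusted p = 0.0232), the neural cadherin. The counts of Cdh2 were low and its IP libraries lay far apart.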
